A study of Mus musculus with 2 samples.

Results

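The genes described here encode enzymes that modify drugs, dietary chemicals, endogenous lipids and vitamin A. They were chosen by symbol, as glutathione S-transferases (Gst, Mgst), UDP-glucuronosyltransferases (Ugt1, Ugt2), cytochromes P450 of families 1 to 4 (Cyp), carboxylesterases (Ces1, Ces2), sulfotransferases (Sult) and aldehyde dehydrogenases whose symbol begins with Aldh1, with at least 50 unique molecular identifiers (UMIs, counted RNA molecules) over all annotated cells. Of 27998 genes in the matrices, 169 carried such a symbol and 77 reached 50 UMIs. Another 52 had no UMI and 40 lay between. The 77 members were 27 Cyp, 21 Gst, 11 Ces, 8 Ugt, 6 Aldh1 and 4 Sult genes. The spelling rule also took in Aldh16a1 and Aldh18a1, whose names begin alike but which belong to other subfamilies. Cyp2c44, with 54 UMIs, lay just inside the limit and Cyp2c67, with 44, just outside.

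The study profiled jejunal crypt cells of male mice by droplet single-cell RNA sequencing with 3′ tags. Both animals, 12 months old and on an albino C57BL6 background (labelled C57BL6/2J), carried a whole-body deletion of the microRNA gene miR-375 made with CRISPR/Cas9 (375KO). All cells used here therefore share that genotype, and no control animal of this series was analysed, so nothing below compares the knockout with wild type. Each mouse gave 1 library, and the mice are called mouse 1 and mouse 2 after their replicate numbers. The libraries held 2082 and 1193 cells annotated by the authors, with 44017234 and 22163354 UMIs and a median of 16475 and 15232 UMIs per cell, and no barcode was shared. The authors clustered these cells together with wild-type cells of another series and assigned 10 types. These were stem cells, transit-amplifying (TA) cells, secretory progenitors, goblet progenitors, goblet cells, Paneth cells, enteroendocrine cells (EEC), tuft cells, enterocytes and intraepithelial lymphocytes. Of 50 marker genes listed for the types, 45 were highest in their own type in both mice, with the weakest agreement for TA cells (2 of 5) and secretory progenitors (2 of 4). The smallest epithelial groups were the 19 secretory progenitors and 20 EEC of mouse 2.

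Detoxification is usually described in phases. Cytochromes P450 and carboxylesterases oxidise or hydrolyse a compound, after which transferases attach glutathione, glucuronic acid or sulfate so that transporters can export it. In the small intestine these enzymes act on swallowed chemicals before they reach the liver, and absorptive enterocytes are known as their main site. Vitamin A is handled alongside them: the intestine takes up retinol and carotenoids, and Aldh1a enzymes can oxidise retinaldehyde to retinoic acid.

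Most members were highest in enterocytes, but a small set was not. The sequences upstream of 5 genes of that set are shown, because they carry the exceptions described below: Mgst3 (highest in tuft cells), Cyp4b1 (EEC), the neighbours Ces1b and Ces1c (goblet cells, by CPM) and Gstm5 (lower in enterocytes than the average over the further epithelial types). They are RefSeq sequences on GRCm38.p6, read 5′ to 3′ on the gene's strand and ending at the start of transcription or, where the GENCODE M21 transcript starts earlier, just before it. Capitals mark 2 searched letter strings on either strand, the antioxidant response element core TGACNNNGC and the aryl hydrocarbon receptor core GCGTG, which reads CACGC on the opposite strand.
Mgst3 (chr1:167393842-167394091, minus strand): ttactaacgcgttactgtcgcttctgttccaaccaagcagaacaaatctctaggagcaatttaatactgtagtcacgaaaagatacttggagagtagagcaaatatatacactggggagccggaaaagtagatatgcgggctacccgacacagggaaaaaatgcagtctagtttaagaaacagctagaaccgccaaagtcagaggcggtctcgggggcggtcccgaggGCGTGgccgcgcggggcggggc
Cyp4b1 (chr4:115647724-115647971, minus strand): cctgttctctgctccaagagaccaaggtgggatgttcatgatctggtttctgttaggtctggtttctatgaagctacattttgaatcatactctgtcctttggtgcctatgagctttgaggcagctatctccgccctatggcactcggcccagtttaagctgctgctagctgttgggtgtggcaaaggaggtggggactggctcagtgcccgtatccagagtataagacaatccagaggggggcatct
Ces1b (chr8:93080018-93080190, minus strand): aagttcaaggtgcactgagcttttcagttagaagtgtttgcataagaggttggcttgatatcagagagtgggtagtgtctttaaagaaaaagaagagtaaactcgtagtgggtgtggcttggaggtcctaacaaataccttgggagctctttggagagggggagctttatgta
Ces1c (chr8:93131284-93131533, minus strand): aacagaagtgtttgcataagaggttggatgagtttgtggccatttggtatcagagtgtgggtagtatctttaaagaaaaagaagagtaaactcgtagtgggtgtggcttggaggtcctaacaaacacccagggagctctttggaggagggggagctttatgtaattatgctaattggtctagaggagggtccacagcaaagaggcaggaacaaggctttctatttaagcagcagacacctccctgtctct
Gstm5 (chr3:107895604-107895820, plus strand): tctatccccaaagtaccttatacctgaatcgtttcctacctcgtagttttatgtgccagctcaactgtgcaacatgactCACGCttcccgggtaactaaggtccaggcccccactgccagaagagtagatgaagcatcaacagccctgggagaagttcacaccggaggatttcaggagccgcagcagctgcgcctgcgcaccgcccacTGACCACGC

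In Gstm5 the 2 strings overlapped, the antioxidant core beginning at -42 and the reversed receptor core at -38 from the RefSeq start, and a second reversed receptor core began at -171. Mgst3 held the receptor core at -22, and neither string occurred in the windows of Cyp4b1, Ces1b or Ces1c. The strings were no more frequent in the members than elsewhere. In windows of 300 bases, TGACNNNGC was found for 6 of 68 members with a RefSeq promoter (8.82%) and for 12.4% of all 32851 promoters, and GCGTG for 17 members (25%) and 32.4% of all promoters. The 6 were Cyp2c65, Cyp2c66, Cyp2j6, Gsta3, Gstm5 and Mgst1. A match describes letters only and is no measured binding site.

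The members together made up 0.648% of all UMIs, 428843 in number. Levels are given as CPM, the UMIs of a gene per 1000000 UMIs of the same mouse and cell type. In 3′ libraries each molecule is tagged once whatever its length, so CPM is not divided by length, but levels of different genes can still differ in capture. In enterocytes the members summed to 13233 CPM in mouse 1 and 10681 CPM in mouse 2. Tuft cells followed with 5218 and 5090 CPM, of which Mgst3 alone gave 3308 and 3472 CPM, so their rank rests largely on this gene. Next came TA cells with 4669 and 3277 CPM and stem cells with 3398 and 2647 CPM. Mgst3 gave 586 and 498 CPM of the TA sums and 341 and 342 CPM of the stem sums. Goblet progenitors, with 3568 and 2303 CPM, lay above stem cells in mouse 1. Paneth cells lay lowest among epithelial types at 239.5 and 167.5 CPM. In Paneth cells 10 genes took 82.6% and 81.9% of all UMIs, against 8.62% to 25.7% in the other epithelial types, so every other gene's CPM is low there.

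Each of the 6 families was highest in enterocytes in both mice, also with TMM scaling of the library sizes. The glutathione transferases reached 5548 ± 298 CPM (mean ± SD, n = 2 mice) in enterocytes and 4302 ± 58.5 CPM in tuft cells. Of these sums, Mgst3 alone gave 1338 ± 143 CPM in enterocytes and 3390 ± 116 CPM in tuft cells. The Aldh1 family reached 1184 ± 122 CPM in enterocytes, beside 880 ± 324 CPM in TA cells and 784 ± 334 CPM in stem cells, and those spreads overlap. The cytochromes P450 stood at 2232 ± 598 CPM against 373 ± 108 CPM in EEC. The carboxylesterases stood at 1553 ± 339 CPM against 285 ± 114 CPM in TA cells. The sulfotransferases stood at 941 ± 359 CPM against 300 ± 63.3 CPM in EEC, and the UDP-glucuronosyltransferases at 499 ± 88.4 CPM against 166 ± 42.8 CPM in TA cells.

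**Figure D1:**
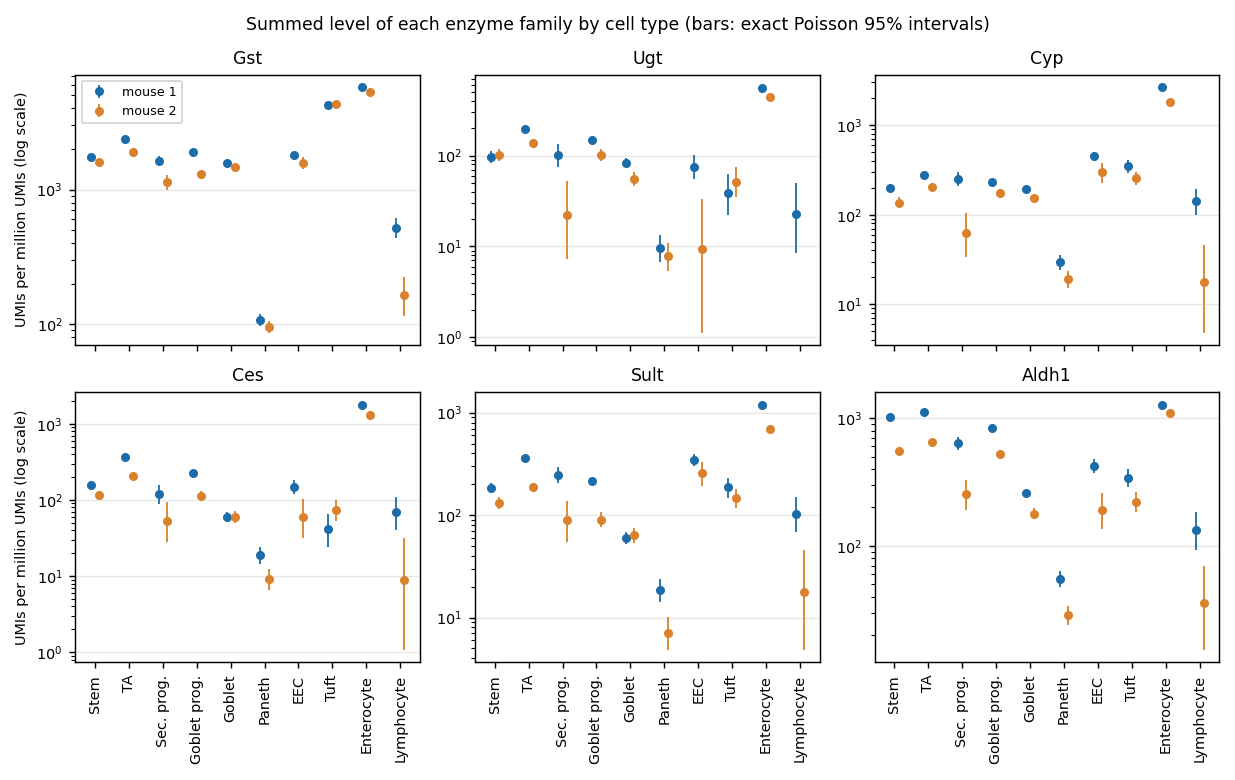
Summed level of each enzyme family (CPM, log axis) in each cell type, with 1 point per mouse and exact Poisson 95% intervals as bars. In all 6 panels the enterocyte points are highest in both mice; the Ugt level of 0 in lymphocytes of mouse 2 cannot be drawn on a log axis.

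Enterocytes were also the highest type for most single members. For 66 of the 77, the highest type was the same in both mice, and that type was the enterocyte for 55. It was the EEC for 4 (Cyp4b1, Gstt1, Gstz1 and Gsto1), the tuft cell for 3 (Mgst3, Sult1c2 and Gstm7), the goblet cell for 2 (Ces1c and Ces1b), the stem cell for Cyp2e1 and the TA cell for Aldh1b1. The minimum of UMIs for a member was counted over all annotated cells. Enterocytes gave 19366535 of 44017234 UMIs in mouse 1 and 5348340 of 22163354 in mouse 2, and tuft cells 413531 and 559907. A sparse gene could thus reach the minimum more easily through enterocytes than through a small type. The 55 can therefore depend in part on this rule. Paneth cells were lowest without a tie in both mice for 23 members and tuft cells for 1, Gstm2. On the TMM-scaled levels that underlie the tests below, available for 65 members, enterocytes were highest in both mice for 47 (48 of the same 65 by CPM), and some of the exceptions changed. Mgst3, Sult1c2, Cyp4b1, Gstt1, Gstz1 and Cyp2e1 kept their type in both mice. Gstm7 was then highest in enterocytes of mouse 2, Gsto1 in enterocytes of mouse 1, Aldh1b1 in stem cells of mouse 1 and enterocytes of mouse 2, and Ces1c, Gstm2, Gstm5, Gstt3 and Cyp2c68 in Paneth cells of both.

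**Figure D2:**
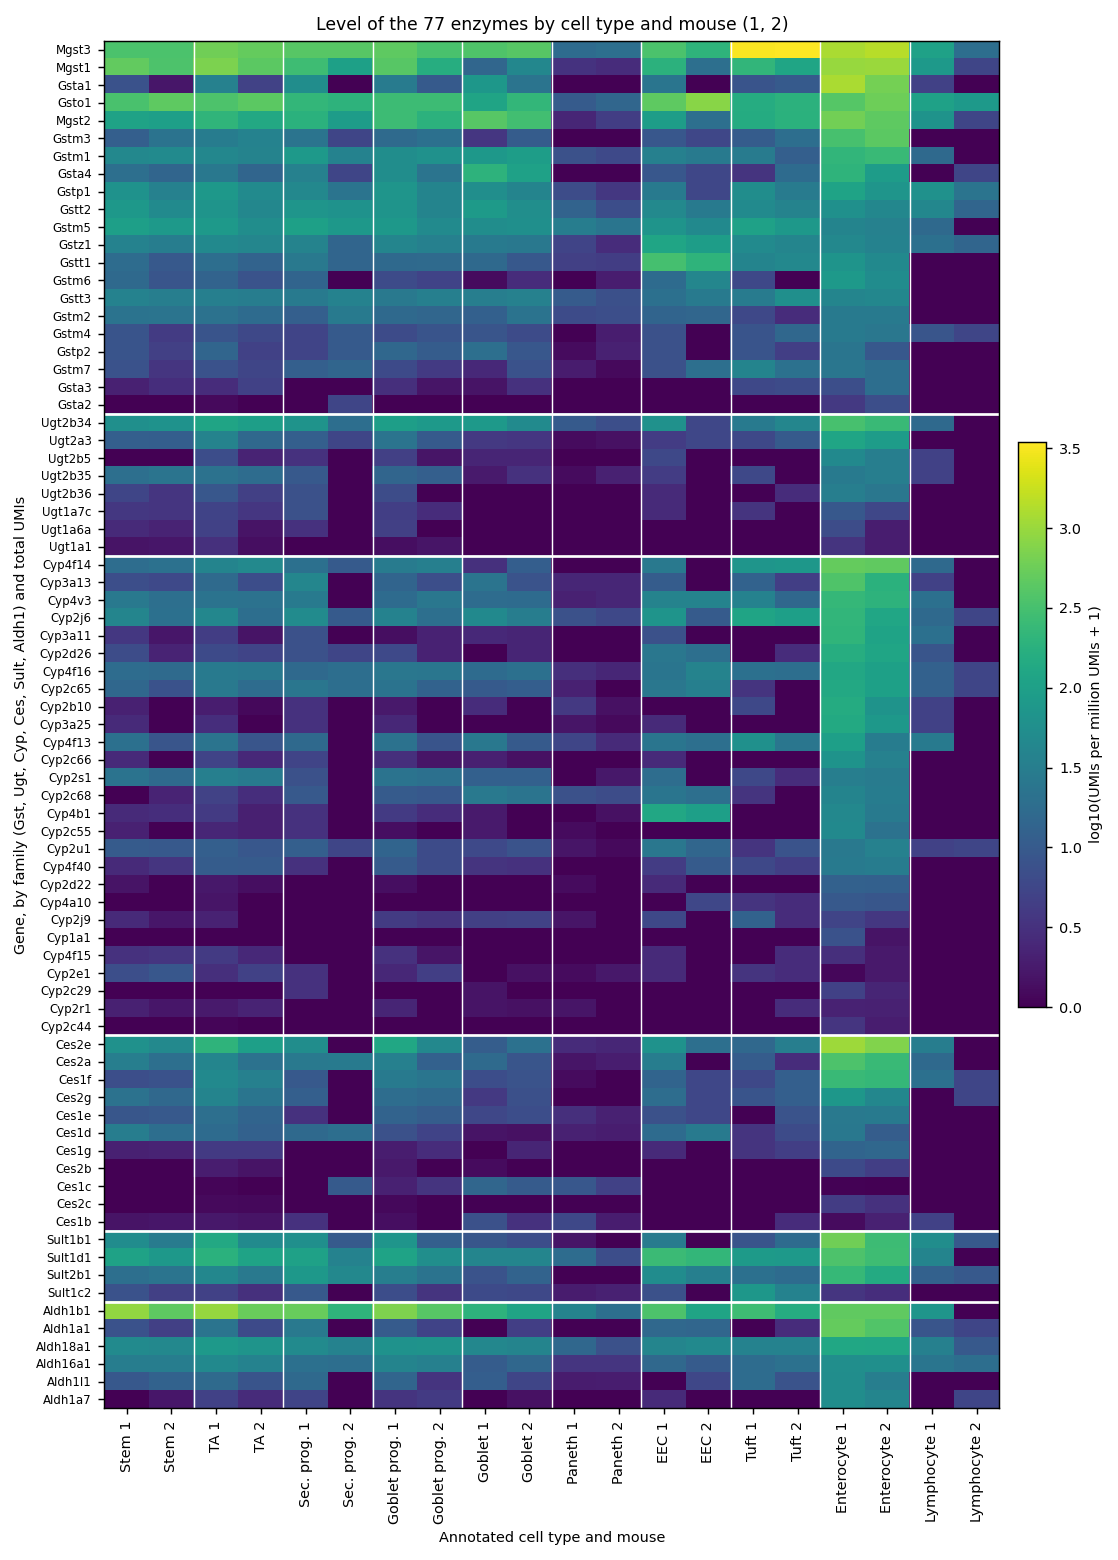
Level of each of the 77 members (rows, grouped by family) in each cell type and mouse (columns), coloured by log10(CPM + 1). The enterocyte columns are the brightest for 55 members in both mice, and the isolated bright cells outside them are the tuft, EEC and goblet members named in the text.

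To test these differences, UMIs were summed per mouse and type, and each of 9 epithelial types was compared with the mean of the other 8 by edgeR's quasi-likelihood test with the mouse as a block, and Benjamini-Hochberg adjusted p-values over 11013 genes. The types were defined with these same cells among those clustered, and each mouse gave 1 library, so p-values measure only the spread between the sums. A filter on low counts left 65 members. In enterocytes 60 of them were higher, where 31.3% of all genes tested were higher, and 3 were lower, where 23.2% of all genes were lower. The median difference was 3.23 on the log2 scale for the members and 0.03 for all genes. The filter can keep a gene because of the type in which it is high, so the 65 are not the whole set.

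Every family contributed. All 6 Aldh1 genes, Aldh16a1 and Aldh18a1 included, were higher, 20 of 21 Cyp genes tested, 18 of 20 Gst, 7 of 8 Ces, 6 of 6 Ugt and 3 of 4 Sult. A call of higher was against the mean of 8 types. Some members so called had a higher pooled CPM in another type, among them Mgst3, Gsto1, Gstt1, Gstz1, Cyp4b1 and Aldh1b1. The Aldh1b1 call was lost without the mouse block. Many members were nearly absent outside enterocytes, and 33 had at least 1 type below 3 counts, where a fitted fold depends on the prior count. With that floor applied to pooled CPM, the median log2 difference was 2.87. Against the next-highest type alone the median log2 ratio was 1.08, with 12 members at least 8-fold, 22 at least 4-fold and 33 at least 2-fold above it.

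The largest fitted differences belonged to Cyp3a11, Cyp3a25, Aldh1a1, Gsta1 and Cyp2b10. Cyp3a11, a main drug-oxidising P450 of mouse liver and gut, had 209 and 114 CPM in enterocytes of mouse 1 and mouse 2 and at most 6.52 CPM in any other epithelial type. Its fitted log2 difference was 8.16 (SE 0.23, adjusted p = 1.88e-22), and its pooled level exceeded the next type by 5.30 on the log2 scale. The related Cyp3a25 had 139.8 and 77.4 CPM, and at most 2.17 CPM elsewhere in the epithelium (log2 difference 8.07, SE 0.26). Cyp2b10, best known as a target of the receptor Nr1i3, had 152 and 64.1 CPM, and at most 4.84 CPM elsewhere (7.38, SE 0.21). All 3 were higher in mouse 1 than in mouse 2, and in both mice the enterocyte level did not overlap with that of any other type. They were named for the size of this difference, so the lack of overlap adds no separate support.

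Aldh1a1, which makes retinoic acid from retinaldehyde, had 509 and 373 CPM in enterocytes. Its next levels were 26.1 CPM in secretory progenitors and 22.3 CPM in TA cells of mouse 1, and Paneth cells had no UMI in either mouse (log2 difference 7.62, SE 0.39, adjusted p = 4.58e-07). Its close relative Aldh1a7 had 54.2 and 39.3 CPM in enterocytes. Gsta1, an alpha-class glutathione transferase, had 1239.8 and 640.4 CPM in enterocytes and 73.2 and 21.9 CPM in goblet cells (log2 difference 7.55, SE 0.31). Of the 50-base stretches at the 3′ end of Gsta1, 89.8% also occur in another annotated gene, so reads of such copies cannot be separated and its level is uncertain.

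**Figure D3:**
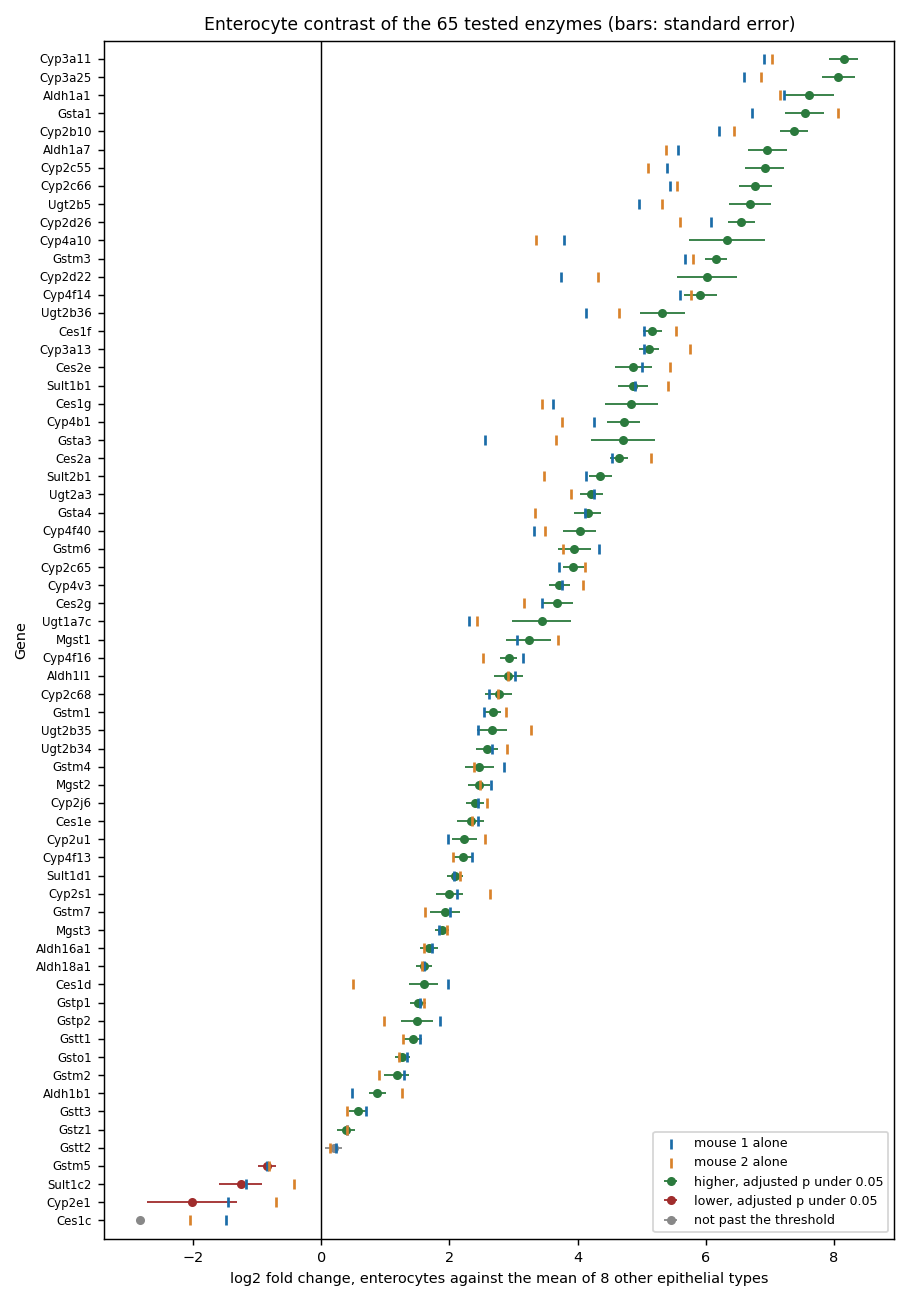
Fitted log2 difference of enterocytes from the average over 8 further epithelial types for the 65 members tested, with SE bars. Members are ordered by this difference and coloured by call, and ticks mark the value of each mouse alone. Points to the right of 0 are higher in enterocytes, only 3 called members lie to the left, and no bar is drawn for Ces1c, whose SE exceeds the axis.

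The 3 members with most UMIs in each family are given next. Among the P450 genes, Cyp4f14, a fatty acid omega-hydroxylase, had 499 and 474 CPM in enterocytes, Cyp3a13 364 and 180.4 CPM, and Cyp4v3 228 and 191 CPM, with log2 differences of 5.92, 5.12 and 3.72. The carboxylesterases were led by Ces2e with 1036 and 739 CPM, Ces2a with 359 and 248 CPM and Ces1f with 251 and 226 CPM (4.87, 4.65 and 5.17). These esterases split ester-containing drugs and lipids. All 6 genes rose in enterocytes.

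Among the conjugating enzymes, Ugt2b34 had 319 and 252 CPM in enterocytes, Ugt2a3 120.2 and 90.9 CPM and Ugt2b5 47.0 and 31.4 CPM, with log2 differences of 2.58, 4.22 and 6.69. Sult1b1, which sulfates phenols and thyroid hormone, had 601 and 263 CPM (log2 difference 4.87), Sult1d1 356 and 278 CPM (2.08) and Sult2b1, a cholesterol sulfotransferase, 236 and 144 CPM (4.36). Mgst1, a microsomal glutathione transferase, had 984 and 1015 CPM in enterocytes, but also 697 and 446 CPM in TA cells (3.23). Aldh18a1, the enzyme that begins proline synthesis, had 126 and 124 CPM (1.61).

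Enterocytes arise from TA cells, so the 2 types were also compared directly. In enterocytes 56 members were higher than in TA cells (29.1% of all genes) and 2 were lower (22.6% of all genes), with a median log2 difference of 2.49 against 0.06 for all genes. The 2 lower members were Cyp2e1 and Gstm5. Not past the threshold were Mgst1, Aldh1b1, Gstt2, Gstz1, Cyp2s1, Sult1c2 and Ces1c.

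Lower in enterocytes than in the mean of the other types were Gstm5, Sult1c2 and Cyp2e1. Gstm5, a mu-class glutathione transferase, had 38.5 and 34.8 CPM in enterocytes, 99.8 and 81.0 CPM in stem cells and 106 and 76.8 CPM in tuft cells (log2 difference -0.85, SE 0.14, adjusted p = 5.15e-06 by edgeR). Only Paneth cells, at 30.7 and 22.9 CPM, lay below enterocytes in CPM in both mice among the epithelial types. On the TMM-scaled levels Paneth cells were instead the highest type, at 197 and 189 scaled CPM against 38.1 and 32.4 in enterocytes. Without Paneth cells in the fit the log2 difference was -0.67, and with library totals alone -0.79, both past the threshold. Cyp2e1, known for ethanol oxidation, had 0.155 and 0.748 CPM in enterocytes and 6.17 and 8.10 CPM in stem cells, the latter from 11 and 13 UMIs. Its difference of -2.02 (SE 0.71, adjusted p = 0.0162) was lost without the mouse block (adjusted p = 0.0624). Sult1c2 stood at 2.53 and 1.87 CPM in enterocytes (-1.26, SE 0.33), and that call was lost with a stricter cell filter (adjusted p = 0.0843).

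The authors' clusters split the enterocytes into 5 groups. They are described here without a test because the expression of these same cells went into the clustering. Cluster 1 had the most Apoa4 RNA, an apolipoprotein of mature villus enterocytes, at 7011 and 5387 CPM. Cluster 2 had the least, at 25.1 and 11.8 CPM. Cluster 1 was highest of the 5 in both mice for 42 members and lowest without a tie for 3, while cluster 2 was lowest without a tie for 30 and highest for Gstm5 alone. The same counts over all genes were not made, so these are not shown to be particular to the members. Summed over all members the levels were 18480.5 and 21886 CPM in cluster 1 against 6708 and 4835 CPM in cluster 2. The median share of mitochondrial reads moved in the same way, 15.1% and 9.65% in cluster 1 and 10.2% and 5.89% in cluster 2, and its part in these levels was not tested.

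The families were spread unevenly over the clusters. The P450 genes summed to 5271 and 5412 CPM in cluster 1 and to 563 and 353 CPM in cluster 2, while the Aldh1 genes differed less, with 1430.4 and 1916 CPM against 1094 and 699 CPM. Inside the Aldh1 family opposite patterns met. Aldh1a1 had 955 and 1317 CPM in cluster 1 and 40.9 and 15.1 CPM in cluster 2, whereas Aldh1b1 had 151 and 241 CPM in cluster 1 and 849.5 and 528 CPM in cluster 2. Cyp3a11 showed the widest contrast of the genes named here, with 644 and 609.5 CPM in cluster 1, 0.857 CPM in cluster 2 of mouse 1 and no UMI in cluster 2 of mouse 2. Not every member peaked in cluster 1: Ugt2a3, Ces2g and Ugt1a6a were highest in cluster 3 in both mice, and Cyp2s1, Cyp2u1, Cyp4f40 and Ces1b in cluster 9. For Ugt1a6a this rests on 109 and 5 UMIs over all enterocytes, and for Ces1b on 5 and 6.

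**Figure D4:**
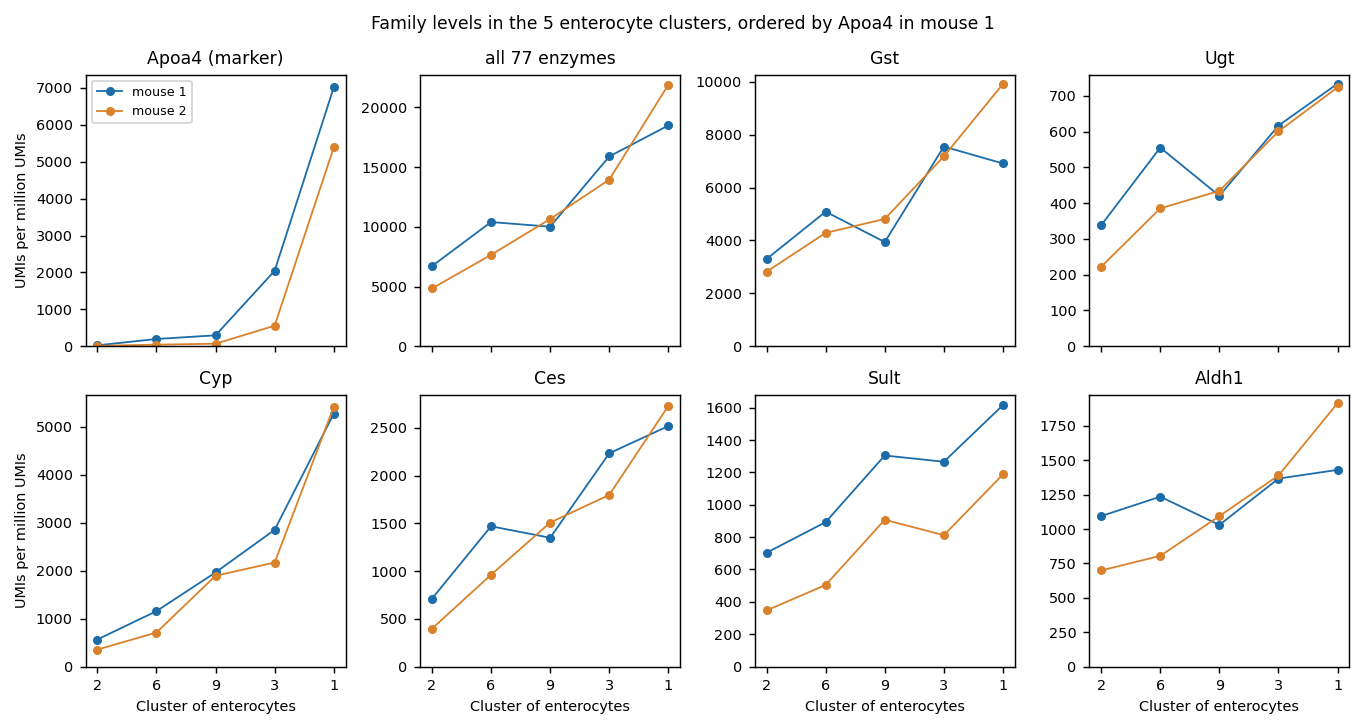
Summed level (CPM) of Apoa4, of all members and of each family in the authors' 5 enterocyte clusters, ordered by Apoa4 in mouse 1, with a line per mouse joining its clusters. The sum over all members is lowest in cluster 2 and highest in cluster 1 in both mice, and the Cyp panel rises from 563 and 353 CPM to 5271 and 5412 CPM between them.

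In tuft cells, the chemosensory cells of the epithelium, 6 members were higher (10.0% of all genes) and 12 lower (5.98% of all genes). Mgst3, a microsomal glutathione transferase linked to cysteinyl leukotriene synthesis, was the most abundant member of the whole set there. It had 3308 and 3472 CPM in tuft cells, 1237 and 1439 CPM in enterocytes, 200 to 586 CPM in the other epithelial types except Paneth cells, and 16.2 and 18.8 CPM in Paneth cells. The tuft levels did not overlap with those of any other type, but Mgst3 was named partly for being highest there. Its log2 difference was 2.84 (SE 0.11, adjusted p = 1.07e-19 by edgeR). Sult1c2 had 75.0 and 35.7 CPM in tuft cells and at most 8.69 CPM in any other type (3.37, SE 0.34, adjusted p = 3.89e-09). Gstm7 had 38.7 and 19.6 CPM in tuft cells beside 23.7 and 18.1 CPM in enterocytes (1.84, SE 0.46, adjusted p = 0.00434), so the 2 types overlap between mice. Without TMM scaling the counts in tuft cells were 11 higher and 5 lower.

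In EEC, the hormone-secreting cells, 6 members were higher (13.5% of all genes) and 14 lower (8.12% of all genes), or 13 and 4 without TMM scaling. Cyp4b1, a P450 that hydroxylates fatty acids and some protoxins, had 131 and 97.5 CPM in EEC, 43.7 and 27.9 CPM in enterocytes and at most 2.98 CPM in every other type (log2 difference 5.93, SE 0.34, adjusted p = 1.89e-14). Gstt1, a theta-class glutathione transferase, had 317 and 199.6 CPM in EEC, 66.5 and 47.3 CPM in enterocytes and 38.7 and 44.7 CPM in tuft cells (3.28, SE 0.18, adjusted p = 1.30e-15). Both genes separated EEC from every other type in both mice, but they were named for being highest there. Gstz1, an isomerase of tyrosine breakdown, had 119 and 92.8 CPM in EEC against at most 48.4 CPM elsewhere (1.36, SE 0.20). Gsto1, an omega-class enzyme, had 461 and 826 CPM in EEC and 406 and 573 CPM in enterocytes (1.06, SE 0.14), with overlap between mice. The enterocyte markers listed for the check of types summed to 973 and 311 CPM in EEC and to 30983 and 15272 CPM in enterocytes. Their part in the EEC calls was not tested.

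**Figure D5:**
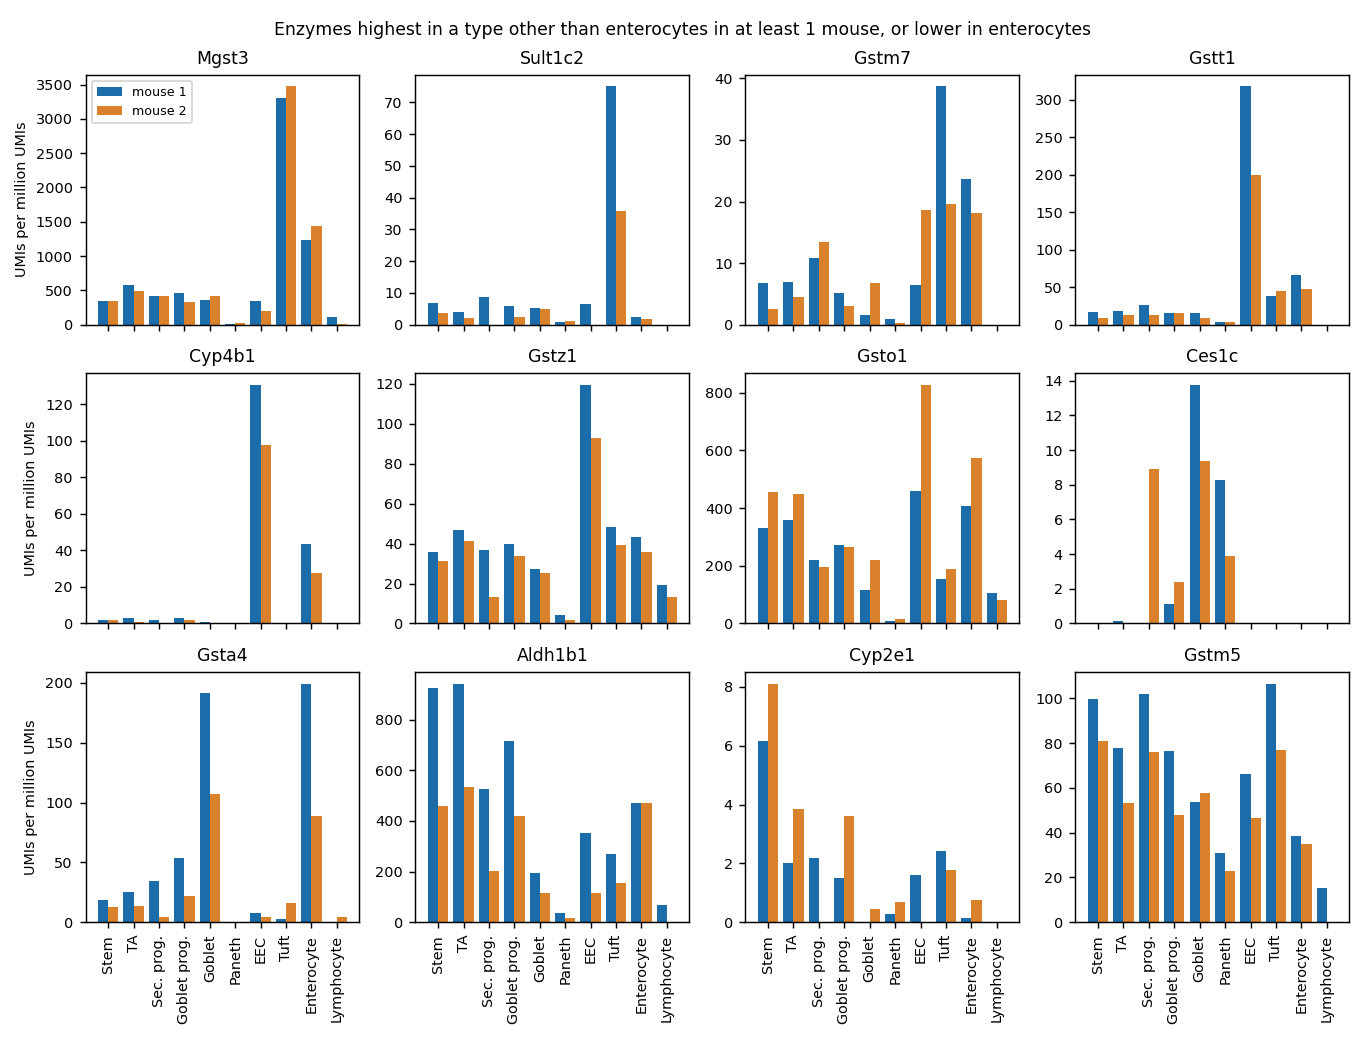
Level (CPM) in each cell type of 12 members highest outside enterocytes in at least 1 mouse or lower in enterocytes, with a bar per mouse. Mgst3 and Sult1c2 stand out in tuft cells, Cyp4b1 and Gstt1 in EEC, and Ces1c in goblet and Paneth cells, with a further 8.93 CPM in the secretory progenitors of mouse 2.

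In goblet cells 9 members were higher (17.8% of all genes) and 13 lower (11.4% of all genes). Ces1c, a secreted carboxylesterase found in mouse plasma, had 13.7 and 9.39 CPM in goblet cells from 52 and 21 UMIs, 8.25 and 3.90 CPM in Paneth cells, and 0.0516 CPM and no UMI in enterocytes. Its log2 difference was 5.57 (SE 0.57, adjusted p = 4.93e-09) in goblet cells and 7.62 (SE 0.60, adjusted p = 3.29e-11) in Paneth cells, although its CPM was higher in goblet cells in both mice. The Paneth value rests on the scaling described next. Gsta4, which detoxifies lipid peroxidation products and was singled out after its values were seen, had 191 and 107 CPM in goblet cells and 199 and 88.8 CPM in enterocytes, so the highest type changed with the mouse.

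In Paneth cells, which secrete antimicrobial peptides, 8 members were higher (15.5% of all genes) and 14 lower (11.4% of all genes). These calls depend on how the sums are scaled. TMM multiplied the Paneth library sizes by 0.156 and 0.121 and those of the other types by 0.952 to 1.59. With library totals alone, the median of all genes in this contrast moved from -0.04 to -3.20 on the log2 scale, 1 member was higher (Ces1c) and 48 were lower, among them Gstm5, Gstm2, Gstt3, Gstt2 and Aldh18a1, which the TMM fit called higher, and with cells thinned to 5000 UMIs none was higher by edgeR (3 at an unadjusted p under 0.05).

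Each crypt-base and progenitor type was set against a mean that included the Paneth sums. In stem cells 8 members were higher (15.4% of all genes) and 5 lower (10.1% of all genes), which became 14 and 3 without TMM scaling and 7 and 7 with DESeq2. Aldh1b1, a mitochondrial aldehyde dehydrogenase, had 926 and 457 CPM in stem cells, 941 and 532 CPM in TA cells and 472 CPM in enterocytes of both mice, so the stem and TA levels overlap. It was higher in TA cells by 1.04 on the log2 scale (SE 0.13, adjusted p = 3.17e-07, or 0.0572 without the mouse block). Cyp2e1 was higher in stem cells by 2.42 (SE 0.53, adjusted p = 0.000876).

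In TA cells 25 members were higher (19.2% of all genes) and 8 lower (13.6% of all genes), which became 39 and 2 without TMM scaling and 16 and 9 with DESeq2. The largest difference was that of Ugt2b36, with 8.18 and 3.67 CPM in TA cells and 31.5 and 24.3 CPM in enterocytes (2.32, SE 0.57, adjusted p = 0.00231, or 0.074 without the mouse block). The enterocyte markers summed to 847 and 229 CPM in TA cells and to 91.9 and 17.5 CPM in stem cells, and their part in the TA calls was not tested.

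In goblet progenitors 6 members were higher (8.93% of all genes) and 7 lower (3.22% of all genes), or 26 and 2 without TMM scaling and none higher without the mouse block by edgeR (5 at an unadjusted p under 0.05). The largest was Cyp4f40 with 9.49 and 5.40 CPM (1.58, SE 0.47, adjusted p = 0.0223), whose call was lost with DESeq2 (adjusted p = 0.0756). In secretory progenitors, where 3.51% of all genes were higher and 1.26% lower, only Sult2b1 was called higher and no member lower, with 9 members lower at an unadjusted p under 0.05. It had 76.0 and 44.6 CPM (2.12, SE 0.45, adjusted p = 0.00351), and the call was lost when cells were thinned to the same depth (adjusted p = 0.421).

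The share of cells with a UMI was also taken at equal depth. Each cell was thinned to 5000 UMIs, and intraepithelial lymphocytes, immune cells and not epithelial ones, served as the background with 11 and 18 cells deep enough. Aldh1a1 was detected in 71.6% and 52.4% of enterocytes (84.7% and 64.1% before thinning), in 8.12% and 2.17% of TA cells and in no lymphocyte. Cyp3a11 was detected in 39.0% and 18.3% of enterocytes, in 1.25% and 0.619% of TA cells and in 9.09% and 0% of lymphocytes, so the TA shares are not above the background of mouse 1. Cyp4b1 was detected in 45.3% and 45.0% of EEC and in 19.4% and 11.3% of enterocytes. Gstt1 was detected in 47.2% and 35.0% of EEC, 27.8% and 19.9% of enterocytes and no lymphocyte, which at these cell numbers still allows shares of up to 28.5% and 18.5% (exact 95% binomial limit). Sult1c2 was detected in 33.3% and 7.89% of tuft cells, in 1.18% and 0.524% of enterocytes and in no lymphocyte. Mgst3 was detected in nearly all tuft cells and enterocytes, so its share does not separate these types.

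Many members lie in tandem arrays of related genes, which made it possible to set neighbours side by side. On mm10, with GENCODE M21 positions for 76 members, 58 fell into 17 neighbourhoods in which the next member lay within 500 kb. By CPM, in 7 neighbourhoods every member was highest in enterocytes in both mice, and in 4 at least 1 was highest in another type in both. The Ugt2b and Ugt2a array on chromosome 5 (chr5:86889767-87337195) and the Ces2 array on chromosome 8 (chr8:104734003-104969537) were of the first kind, each with 5 members. So was the Cyp2c array on chromosome 19, but on the TMM-scaled levels its Cyp2c68 was highest in Paneth cells of both mice. There Cyp2c68 had 42.0 and 47.4 scaled CPM, against 38.7 and 27.5 in enterocytes.

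The Ces1 array was divided (chr8:93056728-93337308). Ces1b and Ces1c, whose upstream sequences are printed above, were highest by CPM in goblet cells, while Ces1e (25.8 and 27.7 CPM), Ces1f and Ces1g (12.9 and 14.2 CPM) were highest in enterocytes. Ces1b was sparse, with 6.61 and 2.24 CPM in goblet cells and 4.84 and 0.917 CPM in Paneth cells. Ces1d, between them, had 30.8 and 18.1 CPM in stem cells and was called higher there by 1.78 on the log2 scale. It was also called higher in enterocytes, with 25.1 and 9.91 CPM, and in mouse 2 its highest level was that of EEC, 27.9 CPM from 6 UMIs. The 250 bases upstream of Ces1b and Ces1c were 76.2% identical after alignment, against a median of 47.7% and a range of 43.0% to 78.1% over the 74 pairs of neighbours compared.

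The theta-class array on chromosome 10 (chr10:75774115-75837424) was also mixed. Gstt1 was highest in EEC, as described, whereas Gstt2 had 83.3 and 55.9 CPM in goblet cells and 45.1 and 27.9 CPM in EEC, and Gstt3 had 39.7 and 42.6 CPM in enterocytes and 19.3 and 27.9 CPM in EEC. The upstream sequences of Gstt1 and Gstt3 were 44.1% identical. On chromosome 4 (chr4:115518264-115647723), Cyp4a10 was highest in enterocytes (8.73 and 7.85 CPM) beside Cyp4b1, highest in EEC. On chromosome 3 (chr3:107895821-108044894) 5 of 7 mu-class genes were highest by CPM in enterocytes in both mice, Gstm7 in tuft cells, and Gstm5 in tuft cells of mouse 1 and stem cells of mouse 2. On the TMM-scaled levels Gstm2 and Gstm5 were highest in Paneth cells in both mice, and Gstm7 in enterocytes of mouse 2.

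Other genes of these pathways were taken from lists of related functions and tested in the same enterocyte contrast. Of 35 genes that handle retinoids, 20 were tested, 16 were higher and 2 lower, with a median log2 difference of 1.57 beside 0.03 for all genes, of which 31.3% were higher and 23.2% lower in this contrast. The same shares stand beside the counts of the other lists. A gene called higher lay above the mean of the other types and was not always highest in enterocytes. Rbp2, the cellular retinol-binding protein of enterocytes, had 8805 and 4141 CPM there (9.33, SE 0.62). Rdh7, a retinol dehydrogenase, had 293 and 151 CPM (6.42), Lrat, which esterifies retinol, 17.2 and 11.8 CPM (3.05) and Bco2, a carotenoid-cleaving oxygenase, 36.5 and 32.9 CPM (4.72). Lower were Bco1, the enzyme that splits beta-carotene to retinaldehyde (-1.76, with 0.516 and 1.496 CPM in enterocytes and 37.1 and 41.8 CPM in the highest type), and the carotenoid receptor Scarb1 (-1.37). Adh1, which oxidises retinol, was higher in enterocytes (285 and 253 CPM, 3.29) than in the mean of the others but reached 1494 and 2261 CPM in tuft cells.

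Of 14 genes for xenobiotic sensors and P450 partners, 13 were tested, 12 were higher and none lower. They included the receptors Nr1i3 (3.97) and Nr1i2 (2.14) and the P450 reductase Por (2.17), while Arnt did not pass (0.36, adjusted p = 0.0834). Of 14 genes of glutathione supply and the Nrf2 response, 12 were tested, 10 were higher and none lower, with Srxn1 at 3.67 and Nqo1 at 3.02. Of 7 efflux transporters, 6 were tested: Abcc2 (3.75), Abcg2 (2.42), Abcb1a (2.00) and Abcc3 were higher, and Abcc1 (-2.56) and Abcc4 (-2.87) lower. Of 26 other enzymes of drug metabolism, 24 were tested, 21 were higher and none lower, with Adh6a (7.05), Papss2 (5.61), which makes the sulfate donor, and Ugdh (3.51), which makes the glucuronic acid donor, among the higher. Adh6a, Papss2 and Ugdh were highest in enterocytes in both mice by CPM. Some genes of these lists that were called higher peaked in another type in both mice. Aldh2, Aldh3a2, Adh5, Cbr3 and Tiparp peaked in tuft cells, Akr1c12 and Akr1c13 in EEC, Gpx2 in secretory progenitors and Hnf4a in TA cells. In the 3 lists without a lower gene, edgeR also gave none lower at an unadjusted p under 0.05. For Hpgds of the glutathione list the test could not decide, since its log2 difference of -1.36 had an SE of 20.4. Hpgds had 0.516 and 0.187 CPM in enterocytes and 380 and 220 CPM in tuft cells.

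The mice differed in the level of some members, although with 1 library per mouse no test is possible. Among 33 members that reached 50 CPM over all epithelial cells of at least 1 mouse, 4 were at least 2-fold higher in mouse 1 in at least 5 of 9 types, where 5.26% of 2644 genes met the same rule. None met it in mouse 2, where 3.63% of genes did. The 4 were Sult1b1 (mean over types 106 CPM in mouse 1 and 42.4 CPM in mouse 2), Cyp3a13 (53.9 and 23.3 CPM), Gsta1 (163 and 76.1 CPM) and Cyp4f13 (31.7 and 11.6 CPM), and with 7 of 9 types required only Cyp4f13 remained. Within enterocyte cluster 1, Gsta1 had 1764 CPM in mouse 1 and 2126 CPM in mouse 2, Cyp3a13 699 and 571 CPM, Sult1b1 895 and 547 CPM and Cyp4f13 150.2 and 62.3 CPM. The summed enterocyte markers were higher in mouse 1 in all 9 epithelial types except tuft cells, where they stood at 331 and 1284 CPM. In Paneth cells, at 0.284 and 0.229 CPM, they were too low for the mice to be compared. In lymphocytes they stood at 621 CPM in mouse 1 and 0 CPM in mouse 2. The median share of mitochondrial reads was 10.2% in mouse 1 and 5.55% in mouse 2 over all cells and 13.2% and 7.59% in enterocytes. The part of either in the difference was not tested.

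Low members were left untested. The filter removed 12 of the 77: Ugt1a6a, Cyp2j9, Ces2b, Cyp1a1, Cyp4f15, Gsta2, Cyp2c29, Ces2c, Ces1b, Ugt1a1, Cyp2r1 and Cyp2c44. Cyp1a1, the classical aryl hydrocarbon receptor target, had 132 UMIs in enterocytes of mouse 1 and 3 UMIs in those of mouse 2 (6.82 and 0.561 CPM), and no UMI in any other type. Of 76 members with annotated transcripts, 38 shared no 50-base stretch of their last 400 bases with another gene, and 7 shared at least 50% of them (Ugt1a1, Gsta1, Ugt1a6a, Ugt1a7c, Gstp2, Gsta2 and Cyp2c68), so the levels of those 7 are uncertain.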

How the data were processed

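Per the labels and the study's methods, the authors aligned 10x 3′ reads with Cell Ranger 3.0.1 to mm10 and deposited UMI counts per cell. They corrected ambient RNA with SoupX, but to which matrix it was applied is not given in the sources used here. They removed doublets with scDblFinder, kept cells with at least 1500 genes and at most 25% mitochondrial reads, and deposited cluster names and the percent of mitochondrial reads per cell, made with Seurat (3.2.1 per the labels, a later version per the methods). The 3275 annotated cells of both mice matched their libraries by barcode. The 2937 cells of another series in the same annotation were not used.

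Counts were summed per mouse and type. edgeR 4.0.16 (quasi-likelihood, TMM, filterByExpr, terms for type and mouse, 8 residual degrees of freedom) was fitted on 18 sums, with a Benjamini-Hochberg threshold of 0.05 and an SE equal to the log2 difference over the root of F. Lymphocytes were left out of the fit. The mouse term follows the design, since sums of a mouse come from the same animal and library. The fits were checked on simulated counts. DESeq2 1.42.0, no count filter, no mouse term, cells thinned to 5000 UMIs, a stricter cell filter and other types in the fit were alternatives. Library totals without TMM were added after seeing the data. Named members were the 3 most abundant per family, those highest in the same type other than enterocytes in both mice and called there, the largest call per type, the 5 largest and all negative calls in enterocytes, and those listed between the mice. Members and gene lists were chosen with earlier results of these data known. Intervals and floors cover counting error only.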

Additional observations from a re-analysis of the deposited data

How the results depend on the processing

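The count of members higher in enterocytes ranged from 52 to 70 over the alternatives (the upper value without a count filter, which adds members), and that against TA cells from 48 to 64. Of 491 comparisons of a result with an alternative, 404 stayed within the limits set for a change, and none of the counts, the median or the named members' differences reversed. Over all members called in any contrast, 12 of 2082 call-by-alternative comparisons changed sign. They were the 5 in Paneth cells without TMM scaling, and 7 that were then not past the threshold: in TA cells Cyp3a13 (thinned), Sult2b1 (without Paneth cells) and Gstm5 (without TMM), in goblet progenitors Cyp3a13 (thinned) and Gstm5 (without TMM), in goblet cells Ugt2a3 (thinned), and against TA cells Ces1d (stricter filter). Without TMM the balance of higher and lower calls also turned in EEC, from 6 and 14 to 13 and 4, and in tuft cells, from 6 and 12 to 11 and 5. In goblet progenitors it turned from 6 and 7 to 26 and 2. The median log2 difference of the members in enterocytes lay between 2.26 and 3.68, and was 3.16 in mouse 2 alone and 3.03 in mouse 1 alone. In the following, numbers are members called, by edgeR unless named, and those given as unadjusted passed p under 0.05 before adjustment. The counts that moved by over 1.5 times without TMM scaling, an alternative chosen after seeing the data, were 14 in stem cells, 39 in TA cells, 26 in goblet progenitors, 2 in secretory progenitors, 1 in Paneth cells, 13 in EEC and 11 in tuft cells. Without the mouse as a replicate block, which pairs the sums of an animal, 3 members were higher in stem cells, 10 in TA cells and 0 in goblet progenitors (5 unadjusted), and 1 was lower in enterocytes than in TA cells. With thinned cells, 5 were higher in stem cells, 0 in secretory progenitors (1 unadjusted) and 0 in Paneth cells (3 unadjusted), 1 was lower in enterocytes and 1 lower than in TA cells. The stricter cell filter left 1 lower in enterocytes and 0 lower than in TA cells (1 unadjusted). Leaving out Paneth cells gave 2 in goblet progenitors and 0 in secretory progenitors (3 unadjusted). DESeq2 gave 16 in TA cells, no count filter 12 in goblet progenitors, and lymphocytes added to the fit 1 lower in enterocytes than in TA cells. Between the mice, 1 member was listed when 7 of 9 types were required. The cause of these changes was not tested. Leaving out a mouse leaves no residual degrees of freedom, so it gives values and no test. The groups of 19 and 20 cells limit what can be seen in secretory progenitors and EEC.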
